A study of Homo sapiens with 18 samples.

Results

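The tetraspanins are a family of small membrane proteins, and their transcripts were described in 18 RNA-seq libraries of the human monocytic lines U937 and THP-1. Members were the rows of the deposited read count table whose mapped symbol was TSPAN with a number, or CD9, CD37, CD53, CD63, CD81, CD82, CD151, PRPH2, ROM1, UPK1A or UPK1B, without pseudogenes. This rule gave 32 of the 18670 genes in the table, and TSPAN8 was not analysed here. Both lines are labelled as acute myeloid leukemia. There were 6 groups of 3 libraries: U937 cells with a lentiviral knockdown of S100A9 (shS100A9), U937 cells with their empty vector (EV), THP-1 cells overexpressing S100A9 from a lentivirus (OE) and given Adavivint at 1 µM for 36 hours, THP-1 EV cells given the same drug, OE cells without the drug, and THP-1 EV cells without the drug. All groups were transduced and selected with puromycin at 2 µg/mL, which began 48 hours after transduction and lasted 24 hours or more. EV cells are labelled WT, the promoters of the vectors and the use of single clones are not stated in the labels, and no vehicle is named for the cells without the drug. S100A9 is a calcium-binding protein that neutrophils and monocytes hold in large amounts, and Adavivint (also lorecivivint) inhibits CLK2 and DYRK1A kinase activity and lowers Wnt signalling.

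Tetraspanins cross the membrane several times and gather integrins, proteases and immune receptors into membrane patches. CD37, CD53 and TSPAN32 are known mainly from blood cells, CD63 marks late endosomes, lysosomes and exosomes, and CD9 and CD81 are common markers of extracellular vesicles. The TspanC8 subgroup (TSPAN5, TSPAN10, TSPAN14, TSPAN15, TSPAN17 and TSPAN33) carries the sheddase ADAM10 out of the endoplasmic reticulum. Other members belong to specialised tissues: UPK1A and UPK1B are uroplakins of the bladder lining, and PRPH2 and ROM1 shape the discs of photoreceptors.

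S100A9 followed the labels, with 0.228 ± 0.174 CPM (library-scaled counts) in U937 shS100A9 against 6.18 ± 1.43 in U937 EV, and 28.4 ± 1.73 in THP-1 OE against 6.44 ± 2.72 in THP-1 EV (SD, n = 3 each). With Adavivint it stood at 105 ± 5.18 CPM in OE and 13.6 ± 1.11 in EV, above every library of the same vector without the drug, so the drug comparisons also differ in S100A9. Library totals ran from 38.4 to 84.4 M counts. Of 10 monocytic markers, 8 to 10 averaged at least 1 CPM in every group, and none was at 0 in a whole group. Their sum was 469 to 485 CPM in U937 shS100A9, 727 to 1063.7 in U937 EV, 914 to 973 in OE with Adavivint, 914 to 1045.5 in EV with Adavivint, 827 to 854 in OE and 872 to 902 in THP-1 EV. With Adavivint 3 of the 10 rose and 6 fell with each vector (adjusted p below 0.05 in edgeR), where 84.7% of all genes passed in OE cells and 85.3% in EV cells. CD14 was at 21.1 ± 0.270 CPM in OE with Adavivint and 20.5 ± 1.12 in EV with Adavivint, against 0.360 ± 0.119 in OE and 0.369 ± 0.177 in EV (SD, n = 3 each), and LYZ rose 2.19-fold in OE and 2.06-fold in EV. CD33 fell 3.91-fold in OE and 3.81-fold in EV, FCGR1A 3.46-fold and 3.48-fold, ITGAM 2.40-fold and 3.56-fold, and ELANE 2.49-fold and 2.26-fold. The part of these markers in the drug results was not tested. Summed markers of platelets, epithelium and stroma reached at most 1.07, 0.215 and 1.43 CPM in any library, and CDH1 and KRT19 were at 0 in 4 groups. In U937, EV replicate 2 and shS100A9 replicate 3 stood apart from the other libraries of their groups. Chi-square divided by its degrees of freedom was 135 to 142 and 167 to 225 for their counts against their partners, and 8.05 and 13.1 for the remaining pairs, so the U937 comparison is given with and without them. Whether replicates came from separate cultures is not in the labels, so the p-values describe spread among these samples only, and that spread may be technical.

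CD63 had the highest level per length of the family in all 6 groups. Levels between genes are compared here as CPM per kilobase of merged exons. In THP-1 EV cells CD63 stood at 52.2 ± 1.35, followed by CD53 at 33.4 ± 0.931 and CD37 at 31.8 ± 4.28 CPM per kb, and CD53 and CD37 did not differ beyond their spread. In OE cells the order was CD63 at 44.0 ± 1.87, CD37 at 38 ± 1.11 and CD53 at 29.4 ± 1.62 CPM per kb. With Adavivint, CD63 reached 79.6 ± 3.63 CPM per kb in OE cells and 80.9 ± 3.79 in EV cells, CD37 was next at 29.1 ± 0.586 and 31.9 ± 1.93, and no other member was above 9.79 ± 0.345. The third place under the drug was shared within the spread by TSPAN3 and TSPAN13, at 9.54 ± 0.181 and 9.34 ± 0.541 CPM per kb in OE cells. In U937 shS100A9, CD63 (41.8 ± 5.34) and CD37 (38 ± 14.2 CPM per kb) overlapped, whereas in U937 EV CD63 at 66.3 ± 3.80 was above CD37 at 28.3 ± 4.75 (SD, n = 3 in each group).

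**Figure D1:**
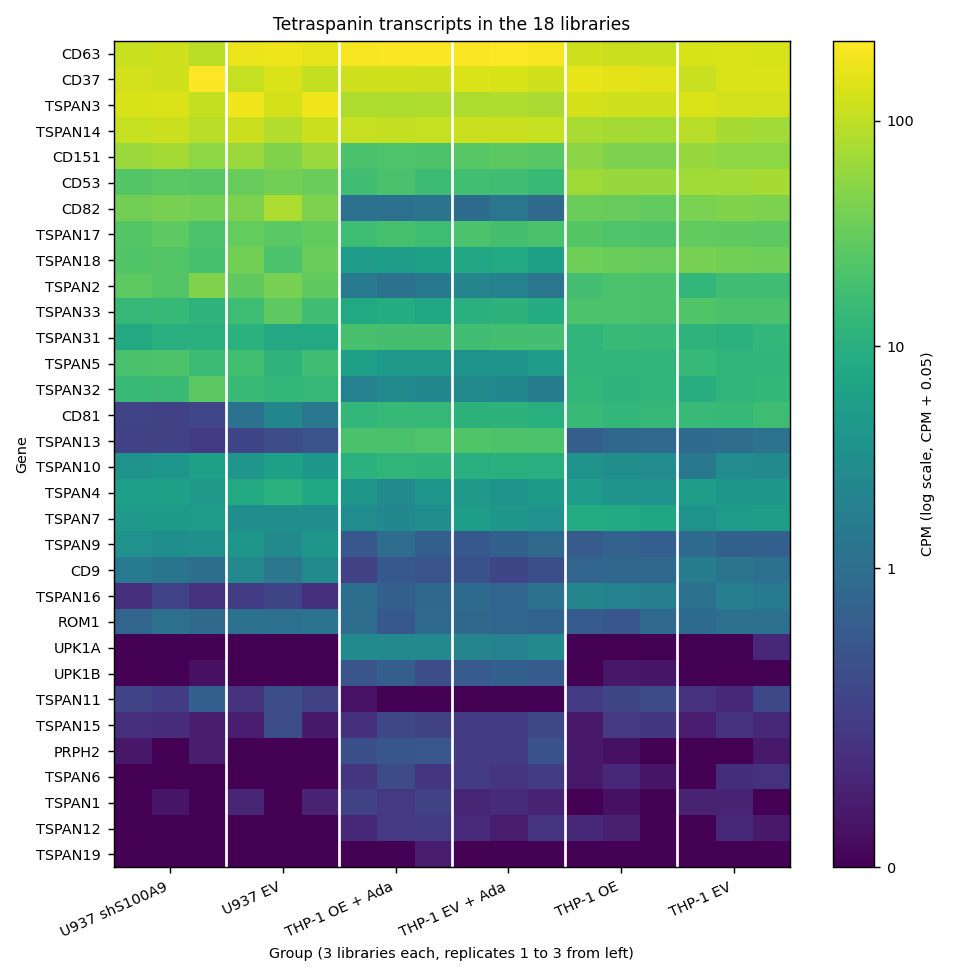
CPM of the 32 tetraspanin genes (rows, ordered by mean level) in the 18 libraries (columns, 3 per group), as colour on a log scale of CPM + 0.05. CD63, CD37, TSPAN3 and TSPAN14 are bright in every library. CD82, TSPAN2 and TSPAN18 darken and TSPAN13 and UPK1A brighten in the 6 libraries with Adavivint.

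The summed level of the family was 678 ± 10.5 CPM in OE with Adavivint, 704 ± 26.9 in EV with Adavivint, 784 ± 32.1 in OE and 826 ± 1.63 in THP-1 EV. In U937 it was 788 ± 25.8 CPM in shS100A9 and 895 ± 13.8 in EV (SD, n = 3 each). Members with a group mean of at least 1 CPM in any group numbered 24. The other 8 (PRPH2, UPK1B, TSPAN1, TSPAN6, TSPAN11, TSPAN12, TSPAN15 and TSPAN19) stayed below 1 CPM in every group, and TSPAN19 had 2 counts in 1 library of OE with Adavivint and none in any other library. After the filter on low counts, 23 members were tested in the U937 comparison, 27 in the THP-1 comparisons and 24 between the lines. TSPAN1, TSPAN6, TSPAN12, TSPAN15 and TSPAN19 were tested in none. TSPAN1 had 23 counts in OE with Adavivint against 2 in OE, a ratio of 18.5 with an exact 95% interval of 4.58 to 162 that covers counting error only, and 10 in EV with Adavivint against 7 in EV. TSPAN6 had 23 counts in OE with Adavivint against 11 in OE, and 21 in EV with Adavivint against 11 in EV, with no overlap in CPM between treated and untreated libraries. TSPAN12 had 16, 12, 9 and 6 counts in OE with Adavivint, EV with Adavivint, OE and EV, and TSPAN15 had 23, 27, 24 and 13.

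Adavivint changed most of the family in THP-1 cells. Out of 27 tested, 8 members rose and 15 fell with the S100A9 vector, and 8 rose and 14 fell with the empty vector (edgeR's quasi-likelihood test, Benjamini-Hochberg adjusted p below 0.05). The drug moved 84.7% of all genes with the S100A9 vector (43.4% upward and 41.3% downward) and 85.3% with the empty vector (44.2% upward and 41.1% downward), so the totals of 85.2% and 81.5% of members were close to that background. By direction, more members fell than rose, while all genes were split more evenly. At least 2-fold changes were seen for 5 members upward and 12 downward in OE cells, where 25.3% and 22.8% of all genes moved that far, and for 5 upward and 9 downward in EV cells, where 25.8% and 21.7% of all genes did. Of the 5 upward members, UPK1A, UPK1B and PRPH2 had 0 to 5 counts per untreated group and passed the filter only through the treated groups. Their part in these counts follows from the filter, and TSPAN13 and TSPAN10 are the others. Among the downward members, TSPAN11 had 1 count in OE with Adavivint and 0 in EV with Adavivint. It passed the filter only through the untreated groups, so its part in the downward counts here and below also follows from the filter. The median log2 fold change of the tested members was -0.34 in OE cells and -0.42 in EV cells, beside 0.04 and 0.06 over all genes, and was the same with members of few counts set to their ratio or bound. Both drug comparisons use separate libraries. Of the members, 21 passed in both with the same direction, 8 upward and 13 downward, which is 91.3% of the calls in OE cells and 95.5% of those in EV cells. The same shares over all genes were 91.0% and 90.4%. In bulk RNA, fewer cells of a type and less RNA per cell cannot be told apart.

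**Figure D2:**
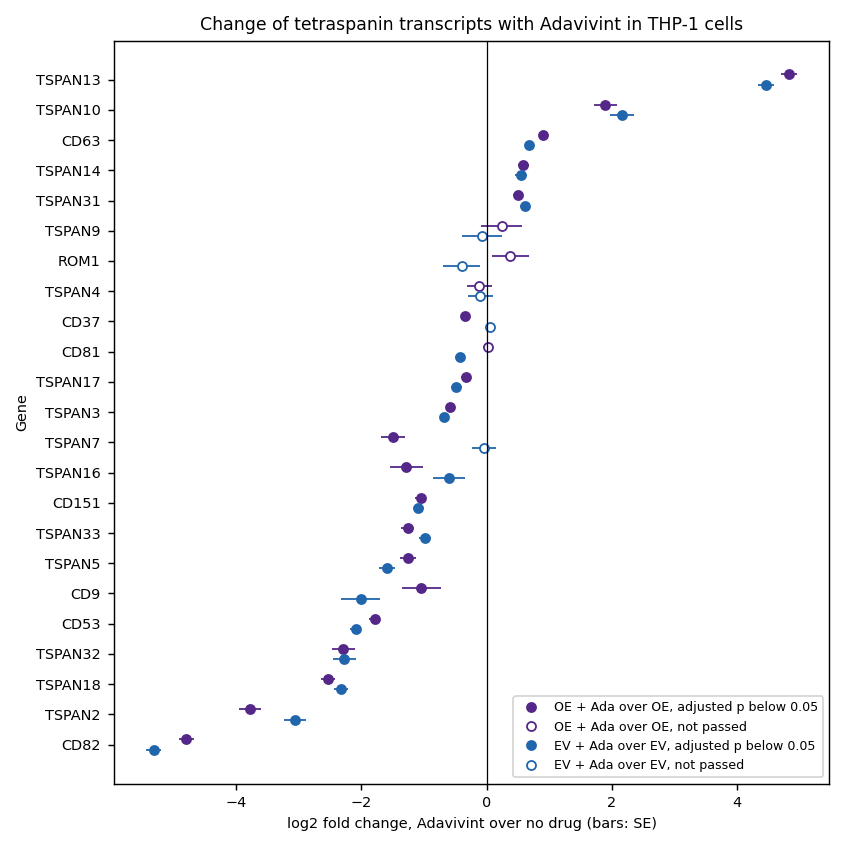
Log2 fold change with Adavivint over no drug (x axis, bars SE) for the 23 tested tetraspanins with a group mean of at least 1 CPM other than UPK1A, in OE cells (purple) and EV cells (blue). Filled points passed at an adjusted p below 0.05. TSPAN13 lies at 4.83 and 4.47 at the top, and CD82 at -4.80 and -5.32 at the bottom.

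Among fallen members with at least 5 CPM in a THP-1 group, CD82 (KAI1), known as a suppressor of metastasis that restrains cell migration, changed the most. It was counted at 1.09, 1.02 and 1.23 CPM in OE cells with Adavivint against 34.5, 31.8 and 30.3 CPM in OE cells. In EV cells with Adavivint it was at 0.931, 1.31 and 0.861 CPM, against 41.1, 45.3 and 42.6 CPM in EV cells. All 6 libraries with the drug were below all 6 without it. The fall was 27.9-fold in OE cells (log2 fold change -4.80, SE 0.12, adjusted p = 2.42e-13) and 40.0-fold in EV cells (-5.32, SE 0.12, adjusted p = 1.22e-13). CD82 lies at chr11:44564427-44620363 on the plus strand (GENCODE 29, GRCh38).

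TSPAN2, best known from the myelin of oligodendrocytes, fell next. Its 3 libraries held 1.61, 1.09 and 1.47 CPM in OE cells with Adavivint and 18.5, 20.5 and 20.2 CPM in OE cells. EV cells with Adavivint had 2.23, 1.96 and 1.31 CPM, against 13.1, 17.2 and 17.1 CPM in EV cells. Treated and untreated libraries did not overlap, with a 13.7-fold fall in OE cells (log2 fold change -3.78, SE 0.18, adjusted p = 1.28e-10) and an 8.33-fold fall in EV cells (-3.06, SE 0.18, adjusted p = 8.15e-10).

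TSPAN13, a member whose function is little known, moved the other way. It was at 20.0, 20.1 and 22.2 CPM in OE cells with Adavivint against 0.596, 0.781 and 0.844 CPM in OE cells. In EV cells it held 22.6, 21.6 and 21.1 CPM with Adavivint against 0.894, 0.970 and 1.19 CPM without it. The rise was 28.5-fold in OE cells (log2 fold change 4.83, SE 0.13, adjusted p = 3.74e-13) and 22.1-fold in EV cells (4.47, SE 0.13, adjusted p = 6.59e-13). BZW2, the gene before TSPAN13 on the same strand, ends 47011 bp upstream and fell, to 24.9 CPM in OE with Adavivint against 124 in OE, and to 28.2 CPM in EV with Adavivint against 117 in EV (log2 fold changes -2.27 and -2.01).

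These 3 genes had the largest drug changes of the family among members with at least 5 CPM in a THP-1 group, and the 250 bases before their starts are shown so that the fallen pair CD82 and TSPAN2 can be read beside TSPAN13, which rose. The starts are those of RefSeq, which are not the GENCODE gene starts: the CD82 window lies inside the GENCODE gene and that of TSPAN13 spans its GENCODE start. The sequences are from RefSeq on GRCh38.p14, written 5′ to 3′ on the strand of the gene: chr11:44565413-44565662 (plus) for CD82, chr1:115089504-115089753 (minus) for TSPAN2 and chr7:16753505-16753754 (plus) for TSPAN13. Capitals mark GGGCGG (the GC box) and CCAAT on either strand. TSPAN18, next by size of change, is named only.
CD82: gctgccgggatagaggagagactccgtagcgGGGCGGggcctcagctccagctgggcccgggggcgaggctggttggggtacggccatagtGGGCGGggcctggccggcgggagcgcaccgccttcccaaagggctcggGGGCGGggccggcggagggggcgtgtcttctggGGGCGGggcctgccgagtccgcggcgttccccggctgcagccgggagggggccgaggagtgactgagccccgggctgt
TSPAN2: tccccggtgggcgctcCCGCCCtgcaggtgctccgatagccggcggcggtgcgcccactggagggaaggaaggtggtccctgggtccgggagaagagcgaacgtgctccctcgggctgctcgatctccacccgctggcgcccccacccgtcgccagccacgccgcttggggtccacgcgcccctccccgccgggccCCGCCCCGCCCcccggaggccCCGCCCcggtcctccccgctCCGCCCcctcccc
TSPAN13: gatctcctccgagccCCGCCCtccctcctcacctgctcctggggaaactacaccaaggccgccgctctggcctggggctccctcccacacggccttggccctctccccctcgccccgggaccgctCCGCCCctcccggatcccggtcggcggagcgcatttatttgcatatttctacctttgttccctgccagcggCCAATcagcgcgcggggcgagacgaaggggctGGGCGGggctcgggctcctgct
GGGCGG stood 4 times in the CD82 window, 5 times in that of TSPAN2, where a pair of matches shares bases, and 3 times in that of TSPAN13, and 42.6% of the 35116 windows of this length in the table held it at least once. CCAAT was found once, in the TSPAN13 window, and in 32.0% of all windows. The E-box CACGTG was in 6.34% of all windows, the ETS core GGAAGT in 19.5% and the TATA box TATAAA in 10.7%. These were also searched on both strands and had no match in the 3 windows shown. Of the 24 members with a window, GGGCGG was in 15, CCAAT in 10, GGAAGT in 8, CACGTG in 3 (CD63, TSPAN4 and TSPAN6) and TATAAA in 1 (UPK1A). A member was counted when any of its windows held the match, while the percentages are shares of windows, so these are unlike measures.

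CD53 and TSPAN32, members known from blood cells, both fell. CD53 was at 16.8, 20.2 and 16.0 CPM in OE with Adavivint against 67.2, 60.7 and 61.7 CPM in OE, and at 17.4, 16.9 and 14.6 CPM in EV with Adavivint against 71.2, 70.2 and 74.0 CPM in EV. Its fall was 3.47-fold in OE cells (log2 fold change -1.79, SE 0.09, adjusted p = 1.1e-10) and 4.25-fold in EV cells (-2.09, SE 0.09, adjusted p = 2.55e-11). TSPAN32 held 2.00, 2.80 and 2.45 CPM in OE with Adavivint against 13.0, 11.7 and 12.1 CPM in OE, and 2.75, 2.49 and 1.68 CPM in EV with Adavivint against 9.37, 12.2 and 13.0 CPM in EV. Neither gene had a treated library as high as any untreated one, and the falls of TSPAN32 were 4.90-fold and 4.82-fold (log2 fold changes -2.29 and -2.27, SE 0.18 in each). CD37, the third of the blood cell members, did not follow them: it was at 122, 123 and 118 CPM in OE with Adavivint against 163, 158 and 154 CPM in OE, and at 139, 136 and 124 CPM in EV with Adavivint against 112, 138 and 147 CPM in EV. CD37 fell 1.27-fold in OE cells (log2 fold change -0.34, SE 0.07, adjusted p = 0.000541), while in EV cells the libraries overlapped (0.05, SE 0.07, adjusted p = 0.485).

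TSPAN18, known from endothelial cells, where it partners the calcium channel ORAI1, was at 5.18, 5.59 and 5.98 CPM in OE with Adavivint against 35.5, 32.8 and 31.7 CPM in OE, and at 7.75, 8.23 and 5.94 CPM in EV with Adavivint against 39.8, 37.8 and 35.2 CPM in EV. That is a 5.78-fold fall in OE cells and a 4.98-fold fall in EV cells (log2 fold changes -2.53 and -2.32, SE 0.11 in each, adjusted p = 3.84e-11 and 7.78e-11). TSPAN18 follows CD82 on the same strand of chromosome 11, with a gap of 106101 bp. It shares 46519 bp with TP53I11 on the opposite strand, measured over whole genes with their introns. Since the strand setting of the counting is not given, reads from shared bases could belong to either gene. How many reads this touches was not measured. Opposite-strand overlaps of this kind also hold for CD37 with TEAD2, TSPAN32 with C11orf21, ROM1 with EML3 and TSPAN16 with RAB3D. TP53I11 stood at 2.23 CPM in OE with Adavivint against 31.3 in OE, and at 2.61 CPM in EV with Adavivint against 37.3 in EV (log2 fold changes -3.77 and -3.79).

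**Figure D3:**
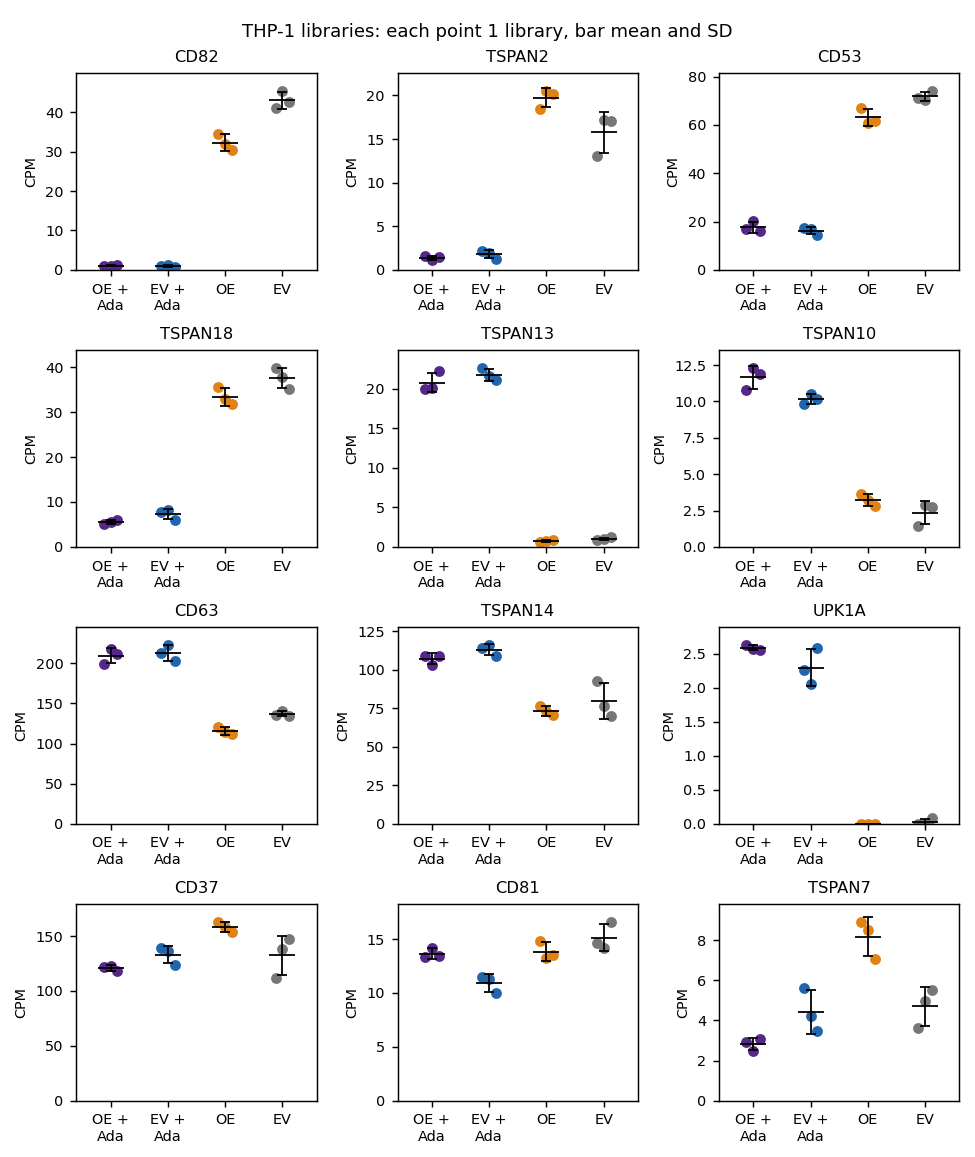
CPM of 12 tetraspanins in the 12 THP-1 libraries. Each point is 1 library, the bar is the group mean and the whisker the SD (n = 3), and the axes start at 0. CD82, TSPAN2, CD53 and TSPAN18 are low and TSPAN13, TSPAN10, CD63, TSPAN14 and UPK1A high in the libraries with Adavivint, and CD37, CD81 and TSPAN7 have a drug change that differs between the vectors.

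The members tied to extracellular vesicles split. CD63 rose, with 199, 218 and 212 CPM in OE with Adavivint against 121, 114 and 112 CPM in OE, and 213, 223 and 203 CPM in EV with Adavivint against 136, 141 and 135 CPM in EV. The rise was 1.87-fold in OE cells and 1.60-fold in EV cells (log2 fold changes 0.90 and 0.68, SE 0.05 in each, adjusted p = 5.16e-10 and 1.13e-08). CD9, also known from the fusion of egg and sperm, fell at a low level, with 0.208, 0.458 and 0.401 CPM in OE with Adavivint against 0.736, 0.745 and 0.796 CPM in OE, and 0.372, 0.240 and 0.323 CPM in EV with Adavivint against 1.64, 1.21 and 1.04 CPM in EV (log2 fold changes -1.04, SE 0.31, adjusted p = 0.00631, and -2.01, SE 0.31, adjusted p = 2.7e-05). CD81, known for its part in B cell signalling, held 13.3, 14.2 and 13.4 CPM in OE with Adavivint and 14.8, 13.2 and 13.5 CPM in OE, which overlap. In EV cells it fell 1.34-fold, with 11.5, 11.3 and 9.95 CPM with Adavivint against 14.6, 14.2 and 16.6 CPM without (log2 fold change -0.42, SE 0.08, adjusted p = 0.000272). CD151, which binds laminin-binding integrins, was at 20.2, 22.3 and 21.6 CPM in OE with Adavivint against 51.9, 42.3 and 42.7 CPM in OE, and at 25.3, 27.1 and 25.0 CPM in EV with Adavivint against 61.9, 54.3 and 54.2 CPM in EV. The groups of CD151 were separate with both vectors, and its falls were 2.07-fold and 2.13-fold (log2 fold changes -1.05 and -1.09, SE 0.09 in each). CD151 overlaps POLR2L on the opposite strand by 2476 bp.

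All 5 tested members of the TspanC8 subgroup passed with both vectors, 2 upward and 3 downward, where 84.7% of all genes passed in OE and 85.3% in EV cells. TSPAN10 rose, to 10.8, 12.3 and 11.9 CPM in OE with Adavivint against 3.64, 3.19 and 2.83 CPM in OE, and to 9.82, 10.5 and 10.2 CPM in EV with Adavivint against 1.44, 2.87 and 2.75 CPM in EV. TSPAN14, the most counted member of the subgroup, also rose, to 109, 103 and 109 CPM in OE with Adavivint against 76.4, 73.0 and 70.3 CPM in OE, and to 114, 116 and 109 CPM in EV with Adavivint against 92.4, 76.1 and 70.0 CPM in EV. The rises of TSPAN10 were 3.73-fold and 4.50-fold (log2 fold changes 1.90 and 2.17, SE 0.19 in each), and those of TSPAN14 1.51-fold and 1.47-fold (0.59 and 0.55, SE 0.09 in each). NPLOC4 overlaps TSPAN10 on the opposite strand by 11295 bp and was at 145 CPM in OE with Adavivint against 124 in OE, and at 137 CPM in EV with Adavivint against 140.5 in EV. TSPAN33, known from red cell precursors and activated B cells, fell, with 8.17, 9.25 and 7.60 CPM in OE with Adavivint against 21.1, 20.6 and 20.0 CPM in OE, and 10.4, 11.3 and 9.24 CPM in EV with Adavivint against 22.9, 20.1 and 20.2 CPM in EV. TSPAN5 was at 5.86, 4.70 and 4.71 CPM in OE with Adavivint against 12.6, 12.4 and 12.4 CPM in OE, and at 3.61, 3.80 and 5.06 CPM in EV with Adavivint against 14.0, 12.4 and 12.6 CPM in EV. Both thus fell without overlap, by 2.39-fold and 1.98-fold for TSPAN33 (log2 fold changes -1.26 and -0.98, SE 0.10 in each) and by 2.38-fold and 3.02-fold for TSPAN5 (-1.25 and -1.59, SE 0.13 in each), giving OE cells before EV cells. TSPAN17 changed least, with 16.5, 19.3 and 16.7 CPM in OE with Adavivint against 24.7, 22.0 and 21.6 CPM in OE, and 20.9, 18.7 and 19.9 CPM in EV with Adavivint against 29.4, 28.7 and 27.8 CPM in EV (log2 fold changes -0.33 and -0.48, SE 0.08 in each, adjusted p = 0.00124 and 4.84e-05). The transcript of ADAM10 itself fell little, to 224 ± 8.10 CPM in OE with Adavivint against 268 ± 16.4 in OE, and to 240.1 ± 11.3 in EV with Adavivint against 272 ± 6.08 in EV (log2 fold changes -0.21 and -0.13, SE 0.06 in each, adjusted p = 0.00391 and 0.0442; SD, n = 3 each).

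TSPAN3 and TSPAN31 moved by less than 2-fold. TSPAN3, a member described as needed for acute myeloid leukemia in mice, was at 81.6, 79.5 and 82.4 CPM in OE with Adavivint against 130.1, 125 and 123 CPM in OE, and at 81.0, 81.8 and 78.3 CPM in EV with Adavivint against 141, 129 and 128 CPM in EV. TSPAN31, first described as a gene amplified in sarcomas, held 19.3, 18.8 and 19.1 CPM in OE with Adavivint against 12.7, 14.5 and 14.2 CPM in OE, and 17.0, 18.0 and 18.0 CPM in EV with Adavivint against 11.7, 11.2 and 13.1 CPM in EV. TSPAN3 fell 1.5-fold and 1.60-fold (log2 fold changes -0.59 and -0.68, SE 0.05 in each), and TSPAN31 rose 1.42-fold and 1.52-fold (0.50 and 0.61, SE 0.08 in each). TSPAN31 overlaps CDK4 on the opposite strand by 2485 bp, and CDK4 fell (log2 fold changes -1.11 and -1.04). TSPAN16 was at 1.01, 0.610 and 0.781 CPM in OE with Adavivint against 2.25, 1.96 and 1.81 CPM in OE, a 2.42-fold fall (log2 fold change -1.28, SE 0.26, adjusted p = 0.000327). In EV cells TSPAN16 overlapped, with 0.884, 0.720 and 1.16 CPM with Adavivint and 1.06, 1.80 and 1.51 CPM without, and its pass (-0.60, SE 0.25, adjusted p = 0.0394) was lost in 4 of 6 fits that left out 1 library, between -0.81 and -0.43. TSPAN4, TSPAN9 and ROM1 did not pass with either vector.

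UPK1A, UPK1B and PRPH2 were counted at low levels under the drug, while ROM1, the partner of PRPH2, was at 0.756 ± 0.265 CPM in OE with Adavivint against 0.601 ± 0.203 in OE and at 0.733 ± 0.0522 in EV with Adavivint against 1.00 ± 0.0918 in EV (SD, n = 3 each). UPK1A had 101, 101 and 115 counts (2.63, 2.57 and 2.56 CPM) in OE with Adavivint against no count in any OE library. With 3 counts set for the OE group, UPK1A was 170.3-fold higher, and the exact 95% interval of its ratio began at 138. In EV with Adavivint it had 97, 94 and 120 counts (2.26, 2.05 and 2.58 CPM) against 0, 0 and 4 counts in EV, a ratio of 92.0 with an exact 95% interval of 35.6 to 339.9 that covers counting error only. No U937 library held a UPK1A count. UPK1B had 53 counts in OE with Adavivint against 5 in OE, a ratio of 17.1 (interval 6.88 to 54.8). It had 74 counts in EV with Adavivint against none in EV, a ratio of 29.2 with 3 counts set for EV (interval from 23.2). PRPH2 had 50 counts in OE with Adavivint against 4 in OE, a ratio of 20.1 (7.40 to 76.8), and 32 in EV with Adavivint against 2 in EV, a ratio of 18.9 (4.83 to 163). TSPAN11 went the other way, with 1 count in OE with Adavivint against 47 in OE, a ratio of 29.2 (4.98 to 1176.1). It had none in EV with Adavivint against 24 in EV, a ratio of 6.76 with 3 counts set for the treated group (interval from 5.08). COX6B1 ends 7654 bp before UPK1A on the same strand and was at 174 CPM in OE with Adavivint and 170.4 in EV with Adavivint, against 107 in OE and 136 in EV.

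The response to the drug differed between the vectors for 4 members by the test of the difference itself, 2 upward and 2 downward, beside 19.3% of all genes (8.04% upward and 11.2% downward). TSPAN7, known for a role in synapses, was at 2.91, 2.47 and 3.08 CPM in OE with Adavivint against 8.91, 8.52 and 7.07 CPM in OE, a 2.80-fold fall (log2 fold change -1.49, SE 0.19, adjusted p = 5.11e-06). In EV cells it overlapped, with 5.61, 4.21 and 3.45 CPM with Adavivint and 3.61, 4.99 and 5.50 CPM without (-0.04, SE 0.19, adjusted p = 0.864). The difference of the changes was -1.45 (log2, SE 0.27, adjusted p = 0.00354) for TSPAN7 and -0.40 (SE 0.10, adjusted p = 0.0175) for CD37. Both fell in OE cells and did not pass in EV cells. The difference was 0.45 (SE 0.12, adjusted p = 0.0175) for CD81, which passed as a fall in EV cells, and 0.22 (SE 0.07, adjusted p = 0.0443) for CD63, which rose more in OE cells. The CD37 and TSPAN7 differences passed in all 12 fits that left out 1 library, CD81 in 11, without OE replicate 2 being the exception (adjusted p = 0.0522), and CD63 in 4.

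S100A9 overexpression without the drug moved 8 of 27 tested members, 2 upward and 6 downward, where 28.0% of all genes changed (14.9% upward and 13.0% downward). Every change was under 2-fold, and the median log2 fold change was -0.12 over the members and 0.02 over all genes. TSPAN7 rose 1.75-fold, to 8.91, 8.52 and 7.07 CPM in OE against 3.61, 4.99 and 5.50 CPM in EV (log2 fold change 0.81, SE 0.18, adjusted p = 0.00638). CD37 rose 1.20-fold, with the libraries already given for OE and EV cells not overlapping (0.26, SE 0.07, adjusted p = 0.0155). CD82 fell 1.33-fold, to 34.5, 31.8 and 30.3 CPM in OE against 41.1, 45.3 and 42.6 CPM in EV (-0.41, SE 0.09, adjusted p = 0.00458), and TSPAN17 fell 1.26-fold, to 24.7, 22.0 and 21.6 CPM in OE against 29.4, 28.7 and 27.8 CPM in EV (-0.33, SE 0.08, adjusted p = 0.00723). CD63 fell 1.18-fold (-0.24, SE 0.05, adjusted p = 0.00369). These 5 passed in every fit that left out 1 library, but CD37 did not pass when only the 6 libraries compared were fitted (adjusted p = 0.0655, log2 fold change 0.25). The other members that passed were CD151 (-0.32, SE 0.08, adjusted p = 0.0132), TSPAN13 (-0.43, SE 0.15, adjusted p = 0.041) and CD9 (-0.77, SE 0.27, adjusted p = 0.0482), which passed in 3, 2 and 1 of those 6 fits.

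Under Adavivint, 1 of 27 members differed between OE and EV cells, beside 8.50% of all genes (3.69% higher and 4.80% lower). CD81 was at 13.3, 14.2 and 13.4 CPM in OE with Adavivint against 11.5, 11.3 and 9.95 CPM in EV with Adavivint, 1.25-fold higher (log2 fold change 0.32, SE 0.08, adjusted p = 0.0309). Leaving out any 1 of the 6 libraries ended this call, with log2 fold changes from 0.26 to 0.36. No member passed as lower in edgeR. At an unadjusted p below 0.05, 1 was higher and 5 were lower, and 23.3% of all genes reached that level. DESeq2 called 1 higher and 4 lower, and the share of all genes it called there is not given here. This comparison, the overexpression without the drug and the drug comparisons share groups.

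In U937 cells, S100A9 knockdown lowered 2 of 23 tested members and raised none, where 1.77% of all genes changed (0.230% upward and 1.54% downward). At an unadjusted p below 0.05 there were 1 member higher and 6 lower, where 14.3% of all genes reached that level, and DESeq2 called 1 higher and 4 lower. CD81 fell at a low level, to 0.235, 0.204 and 0.252 CPM in shS100A9 against 1.12, 2.30 and 1.40 CPM in EV, from 47 and 230 counts per group. The libraries did not overlap and the fall was 6.95-fold (log2 fold change -2.80, SE 0.37, adjusted p = 0.0224). CD63 was at 112, 123 and 95.0 CPM in shS100A9 against 174, 185 and 165 CPM in EV, a 1.59-fold fall without overlap (-0.67, SE 0.12, adjusted p = 0.0467). The CD81 call was lost in 5 of 6 fits that left out 1 library (-3.0 to -2.45, largest adjusted p = 0.146) and the CD63 call in 6 of 6 (-0.75 to -0.58, largest adjusted p = 0.226). Of the 9 monocytic markers tested, 2 fell. ELANE was at 60.3 ± 11.5 CPM in shS100A9 against 222 ± 61.8 in EV (log2 fold change -1.89, SE 0.25, adjusted p = 0.0214), and CD68 fell to 44.6 ± 4.54 CPM in shS100A9 against 99.2 ± 16.2 in EV (log2 fold change -1.16, SE 0.14, adjusted p = 0.0181; SD, n = 3 each), and the part of these markers in the results above was not tested.

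**Figure D4:**
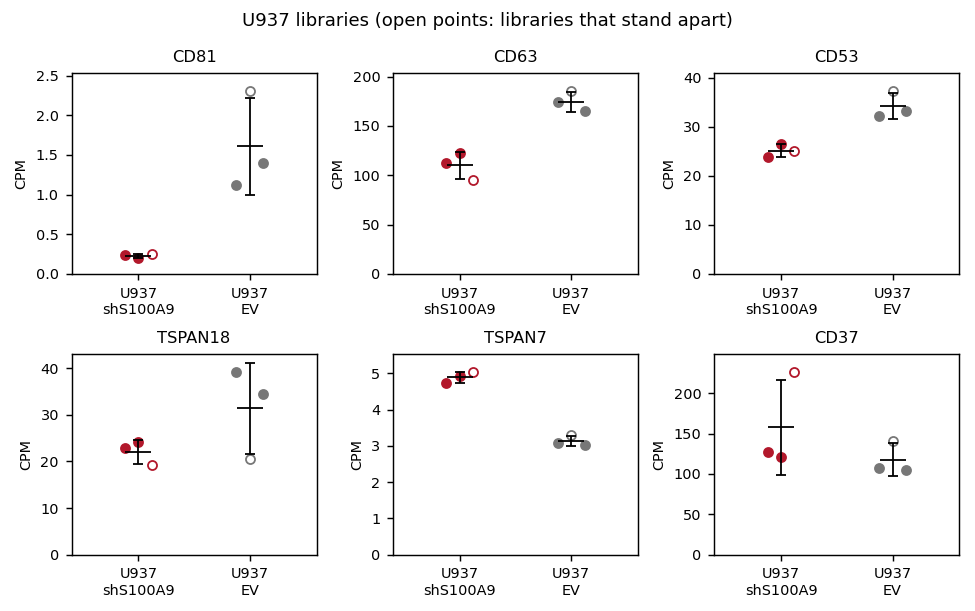
CPM of 6 tetraspanins in the 6 U937 libraries, shS100A9 left of EV. Each point is 1 library, open points are EV replicate 2 and shS100A9 replicate 3, bars are means and whiskers SD (n = 3), and the axes start at 0. CD81 and CD63 are lower in all 3 shS100A9 libraries, and the open point of CD37 lies at 226 CPM, above the other libraries.

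Without the pair of U937 libraries that stood apart, 12 members passed, 9 lower and 3 higher, beside 32.9% of all genes, with 2 libraries left in each group. Over all genes, those that passed in that fit were split more evenly by direction than the members, with somewhat more lower than higher. CD81 and CD63 were lower there too (log2 fold changes -2.53, SE 0.34, adjusted p = 0.00149, and -0.54, SE 0.06, adjusted p = 0.000514). The other members lower in that fit were TSPAN18 (-0.66), TSPAN3 (-0.45), CD53 (-0.39), TSPAN33 (-0.31), CD9 (-0.92), TSPAN4 (-0.44) and TSPAN17 (-0.24), and those higher were TSPAN7 (0.65), TSPAN5 (0.24) and CD37 (0.21). With all libraries, CD53 was at 23.8, 26.5 and 25.0 CPM in shS100A9 against 32.1, 37.2 and 33.3 CPM in EV (-0.45, SE 0.11, adjusted p = 0.112), and TSPAN7 at 4.73, 4.92 and 5.03 CPM in shS100A9 against 3.08, 3.30 and 3.02 CPM in EV (0.64, SE 0.17, adjusted p = 0.155). The libraries that stood apart were high for some members and low for others. CD37 had 226 CPM in shS100A9 replicate 3 beside 127 and 121 CPM in its partners, and CD63 and TSPAN3 were lowest there, at 95.0 and 103 CPM. In EV replicate 2, CD82 had 78.9 CPM beside 43.0 and 42.8 CPM, whereas TSPAN3 had 133 CPM beside 191 and 189 CPM and TSPAN18 had 20.5 CPM beside 39.1 and 34.5 CPM.

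Between the lines, 9 of 24 members differed in EV cells, 5 higher and 4 lower in U937, where 26.2% of all genes differed (11.4% higher and 14.8% lower). Each line has its own vector, so line and vector cannot be told apart. CD81 was at 1.12, 2.30 and 1.40 CPM in U937 EV against 14.6, 14.2 and 16.6 CPM in THP-1 EV, 9.40-fold lower in U937 (log2 fold change -3.23, SE 0.27, adjusted p = 0.00028). CD53 was at 32.1, 37.2 and 33.3 CPM in U937 EV against 71.2, 70.2 and 74.0 CPM in THP-1 EV (-1.07, SE 0.08, adjusted p = 0.000225). TSPAN9, a member abundant in platelets, was 5.16-fold higher in U937, with 4.30, 2.69 and 4.15 CPM in U937 EV against 0.894, 0.626 and 0.617 CPM in THP-1 EV (2.37, SE 0.28, adjusted p = 0.00122). The lines did not overlap for any of the 9, nor for TSPAN31, TSPAN32 and TSPAN7, which did not pass. The share of all genes without overlap was not counted, so this lack of overlap cannot be read as a trait of the family. TSPAN2 was higher in U937 at 28.9, 40.3 and 29 CPM in U937 EV against 13.1, 17.2 and 17.1 CPM in THP-1 EV (1.04, SE 0.17, adjusted p = 0.00479). TSPAN16 and TSPAN13 were lower in U937, at 0.170 ± 0.0658 and 0.311 ± 0.0655 CPM in U937 EV against 1.46 ± 0.372 and 1.02 ± 0.156 CPM in THP-1 EV (SD, n = 3 each). Their log2 fold changes were -3.07 (SE 0.38, adjusted p = 0.00138) and -1.70 (SE 0.28, adjusted p = 0.00484).

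TSPAN4, known as a marker of migrasomes, was at 8.16, 10.8 and 7.70 CPM in U937 EV against 5.61, 4.24 and 4.46 CPM in THP-1 EV (0.89, SE 0.19, adjusted p = 0.0142). CD63 was 1.27-fold higher in U937 (0.34, SE 0.07, adjusted p = 0.013), and TSPAN10 was higher at 3.96, 6.17 and 4.46 CPM in U937 EV against 1.44, 2.87 and 2.75 CPM in THP-1 EV (1.05, SE 0.31, adjusted p = 0.0477). The calls of TSPAN4 and CD63 were lost in 2 of 6 fits that left out 1 library, each without THP-1 EV replicate 2 or 3, and that of TSPAN10 in all 6. Without U937 EV replicate 2, 15 members differed between the lines, beside 43.9% of all genes. The additional ones were TSPAN3 (0.51), TSPAN14 (0.53), TSPAN5 (0.41), CD9 (1.00), TSPAN33 (-0.32), CD37 (-0.32) and TSPAN7 (-0.63), and TSPAN10 no longer passed.

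**Figure D5:**
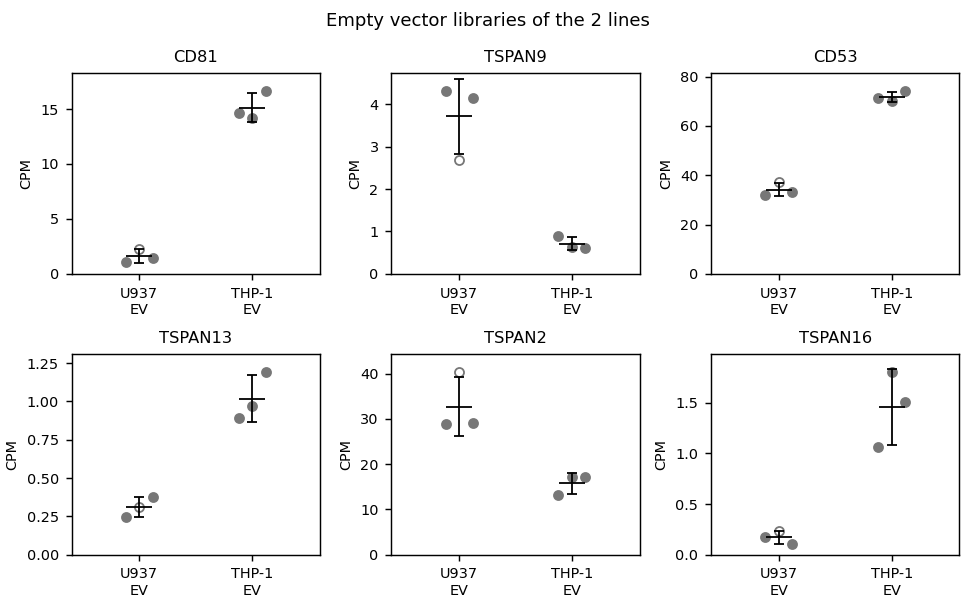
CPM of 6 tetraspanins in the EV libraries, U937 left of THP-1. Each point is 1 library, the open point is U937 EV replicate 2, bars are means and whiskers SD (n = 3), and the axes start at 0. CD81, CD53, TSPAN13 and TSPAN16 are lower and TSPAN9 and TSPAN2 higher in all 3 U937 libraries.

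Proteins that bind tetraspanins were counted from a list of 30 genes, of which 26 were tested in THP-1 cells. With Adavivint 9 rose and 16 fell in OE cells, and 10 rose and 15 fell in EV cells, with medians of -0.61 and -0.32 on the log2 scale. That is 96.2% of the tested partners with each vector, beside 84.7% and 85.3% of all genes. Integrin chains moved both ways: ITGAV and ITGA3 rose (log2 fold changes 0.69 and 0.75 in OE cells, 0.93 and 0.98 in EV cells), and ITGA4, ITGA5, ITGA6, ITGA7 and ITGB1 fell. ITGA4, a leukocyte integrin chain that associates with tetraspanins, was at 93.2 ± 8.03 CPM in OE with Adavivint against 769.8 ± 42.8 in OE, and at 106 ± 15.9 in EV with Adavivint against 804 ± 25.1 in EV (log2 fold changes -3.0 and -2.88, SE 0.10 in each; SD, n = 3 each). ITGA5, the fibronectin receptor chain, fell 4.88-fold and 6.26-fold (-2.29 and -2.65, SE 0.07 in each), and CD44, the hyaluronan receptor, fell 3.81-fold and 3.13-fold (-1.93 and -1.65, SE 0.07 in each). ITGA7, a laminin receptor chain, fell 4.27-fold and 3.14-fold (-2.09 and -1.65, SE 0.08 in each), and ZDHHC2, an enzyme that adds palmitate to tetraspanins, fell 4.75-fold and 4.87-fold (-2.25 and -2.28, SE 0.10 in each). In the overexpression comparison 4 rose and 3 fell (26.9% beside 28.0% of all genes), led by ITGA5 (-0.44), CD4 (0.28), HBEGF (-0.49) and CD44 (0.25). In the knockdown PI4K2A alone passed (-0.67, SE 0.11, adjusted p = 0.0412), of 24 tested, beside 1.77% of all genes. At an unadjusted p below 0.05, 1 partner was higher and 2 lower in the knockdown, and DESeq2 called 1 in each direction.

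ADAM10 substrates, the surface proteins that this protease cuts, split as well. Of 14 tested, 6 rose and 5 fell with Adavivint in OE cells, and 4 rose and 4 fell in EV cells, with medians of 0.24 and -0.02. These were 78.6% and 57.1% of the tested substrates, beside 84.7% and 85.3% of all genes. FCER2 (CD23), the low-affinity IgE receptor, fell to 17.6 ± 1.03 CPM in OE with Adavivint against 89.0 ± 2.41 in OE, and to 15.2 ± 1.28 in EV with Adavivint against 91.2 ± 14.1 in EV (log2 fold changes -2.29 and -2.53, SE 0.10 in each). APP fell with both vectors (-0.25 in OE cells and -0.43 in EV cells, SE 0.05 in each) and NOTCH2 rose with both (0.14 and 0.32, SE 0.05 in each), while IL6R rose in OE cells (0.65, SE 0.07) and did not pass in EV cells. FCER2 was also the only substrate that passed in the knockdown, of 12 tested, at 2.92 ± 0.149 CPM in shS100A9 against 27.3 ± 3.30 in EV (-3.24, SE 0.15, adjusted p = 0.000772; SD, n = 3 each). Another 2 substrates reached an unadjusted p below 0.05 in the knockdown, 1 of them higher, and DESeq2 called 1 higher and 1 lower.

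Genes of vesicle formation and release moved in both directions with the drug. Of 27 tested, 10 rose and 10 fell in OE cells, and 10 rose and 12 fell in EV cells, with medians of -0.07 and 0.08. These were 74.1% and 81.5% of the tested vesicle genes, beside 84.7% and 85.3% of all genes. Higher were CHMP4B, an ESCRT subunit, at 214 ± 4.53 CPM in OE with Adavivint against 79.3 ± 0.947 in OE and 193 ± 4.20 in EV with Adavivint against 79.8 ± 5.70 in EV (log2 fold changes 1.48 and 1.32, SE 0.06 in each), SDCBP (syntenin, 1.42 and 1.46, SE 0.08 in each) and VPS4B (0.80 and 0.97, SE 0.05 in each). FLOT1, a scaffold of membrane rafts, fell to 10.1 ± 1.07 CPM in OE with Adavivint against 52.4 ± 3.56 in OE, and to 11.3 ± 1.45 in EV with Adavivint against 50.3 ± 0.605 in EV (-2.33 and -2.10, SE 0.09 in each; SD, n = 3 each). Overexpression raised 6 and lowered 3 of these genes (33.3% beside 28.0% of all genes), led by LAMP1 (-0.61), SMPD3 (1.23), PDCD6IP (0.19) and PLD2 (0.50), and in the knockdown RAB31 alone passed (-0.72, SE 0.11, adjusted p = 0.0363), of 25 tested. At an unadjusted p below 0.05, 1 vesicle gene was higher and 4 lower in the knockdown, and DESeq2 called 4 lower.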

How the data were processed

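The authors deposited a table of raw read counts per gene for 18 libraries, with no normalization; HISAT2 2.0.4 is named in the submitters' processing notes, while the counter, build, annotation and strand setting stand nowhere in the labels or the file header. Symbols were matched for 18642 of 18670 genes. Lengths and positions come from GENCODE 29, promoters from RefSeq, with 24 of 32 members matched.

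Tests used edgeR 4.0.16 (R 4.3.3): TMM factors, filterByExpr, the quasi-likelihood F test and Benjamini-Hochberg adjustment over all genes tested, with the threshold at 0.05. The 6 U937 libraries, the 12 THP-1 libraries and the 6 EV libraries were fitted separately, over 13016, 15403 and 13695 genes. Each SE is |log2 fold change| over the root of its F statistic. CPM uses TMM over all 18 libraries. Fits were tested on simulated data. The floor is 3 counts over a group, and intervals are exact at 95%. Floors and intervals cover counting error only. No pair of replicates agreed within sampling noise (chi-square per degree of freedom 7.18 to 225).

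Alternatives were RLE factors, library totals, upper-quartile factors, no filter, at least 1 CPM in 3 libraries, DESeq2 1.42.0, a replicate block, only the 6 libraries compared and leaving out each library. Leaving out the 2 U937 libraries that stand apart was added after seeing the data. The members and gene lists were chosen with earlier results of these data known. All members are accounted for; library values are given for members that passed in a comparison with a group mean of at least 2 CPM, in the comparisons they passed, and up to 4 genes per list by smallest p. CD53, TSPAN7, CD37 and CD82 in the U937 comparison and ADAM10 were named after their values were seen. Promoters were taken for the members with the largest drug change among those with at least 5 CPM in a THP-1 group. The lymphoid and erythroid marker lists are not reported here.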

Additional observations from a re-analysis of the deposited data

Results flagged for a closer look

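The change with Adavivint differed between OE and EV cells for 4 members, by the test of the difference between the drug effects in edgeR. The difference (OE minus EV, log2) was -1.45 for TSPAN7, -0.40 for CD37, 0.45 for CD81 and 0.22 for CD63. Over all 15403 genes tested, 19.3% passed this test.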

How the results depend on the processing

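None of the 69 calls of members changed its direction under any alternative that tested it, and no scaling moved the median of all genes by over 0.1. The direction of other named genes was not followed through the alternatives. Of 69 calls of members, 68 were kept with RLE factors, 65 with library totals, 66 with upper-quartile factors, 65 without a filter, 66 with DESeq2 and 63 with a replicate block. With at least 1 CPM in 3 libraries 59 of 62 were kept, with only the 6 libraries compared 48 of 51, and 57 of 69 were kept in every fit that left out 1 library. Of 2 members called in the knockdown, 1 was left with upper-quartile factors, 1 without a filter and 1 with at least 1 CPM in 3 libraries. DESeq2 called 5 members in the knockdown, the fit without both libraries that stand apart 12, and fits without 1 library 0 to 1. For overexpression under the drug the count of 1 became 4 with library totals, 2 with at least 1 CPM in 3 libraries, 5 with DESeq2, 2 with only the 6 libraries compared, and 0 to 4 without 1 library. Fits without 1 library gave 21 to 22 members for the drug in EV cells, 23 for the drug in OE cells, 5 to 9 members for overexpression (5 without OE replicate 2), 2 to 5 for the difference of the drug effects (2 without OE replicate 2, 7 with DESeq2) and 6 to 15 between the lines (15 without U937 EV replicate 2). The cause was not tested. Whether replicate numbers mark pairs was not settled: 5 of 18 same-numbered pairs correlated above 0.1 (-0.472 to 0.267). These include pairs between the lines and U937 pairs with the libraries that stand apart. In the drug comparisons same-numbered pairs ran from 0.00294 to 0.171, and differently numbered pairs from -0.17 to 0.0213. A replicate block left 0 members in the knockdown, where calls over all genes went from 231 to 3, and 0 for overexpression under the drug. Such a block also takes up degrees of freedom, so lost calls cannot show whether libraries were paired. The 8 members below 1 CPM rest on few counts, and 5 of them were not tested.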
